A study of Mus musculus with 24 samples.

Results

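The collagen genes were the rows of the deposited count table whose mouse symbol is Col, a number, the letter a and a number. They numbered 44 of 55414 genes, and were divided into 11 fibrillar chains, 8 basement membrane chains and 25 others. They were measured by RNA sequencing in 24 D4M tumours, D4M being a mouse melanoma line, from wild-type C57BL/6 mice. Mice of the 4 groups, with 6 tumours in each, had received brequinar with an antibody against PD-1 (BRQ+PD-1), brequinar with an IgG2a control antibody (BRQ+IgG2a), the antibody against PD-1 alone (PD-1) or the IgG2a antibody alone (IgG2a), always by intraperitoneal injection, so that an antibody was part of every group. Brequinar (BRQ) inhibits dihydroorotate dehydrogenase, an enzyme of pyrimidine synthesis, and PD-1 is an inhibitory receptor of T cells. The design asks how the pair of treatments changes the tumour environment. The labels state no dose, time, sex or age.

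Collagens are matrix proteins of 3 chains wound into a triple helix. Fibrillar types are secreted as procollagens, trimmed at both ends, packed into fibrils and cross-linked, and type IV chains form the sheet-like network of basement membranes. The remaining types link fibrils to their surroundings, form beaded filaments or short-chain networks, anchor skin or cross the cell membrane. In tumours, fibroblasts are the best known source of fibrillar chains, and vessel cells of type IV chains.

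Library totals ran from 19106205 to 34282319 counts, and collagen genes took 1.42 to 2.22% of the scaled total in each tumour. Levels are counts scaled to library size with TMM factors (CPM, the usual per-library scale), and comparisons between genes use CPM per kilobase of transcript (CPM per kb). High skeletal muscle RNA marked 4 tumours (BRQ+IgG2a replicate 4, PD-1 replicate 6, and IgG2a replicates 2 and 3): Acta1, the actin of skeletal muscle, stood at 4064 to 14962 CPM there and at most at 425 CPM in the other 20. Of 8 melanocyte and neural crest markers, Tyr and Dct, the pigment enzymes, had no count in any tumour, and Pmel and Sox10 reached at most 1.48 and 1.40 CPM, while Mitf stood at 11.4 to 51.9 CPM. Apart from Mitf, the melanocyte markers named here were thus at or near 0. In these bulk samples, fewer cells of a type and less RNA per cell cannot be told apart.

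Most collagen message came from few genes. The pair with the highest CPM, Col3a1 and Col1a1, took 42.9% of all collagen counts, the top 5 took 66.2%, the top 10 took 90.6% and the top 15 took 98.3%. An average of at least 100 CPM was reached by 15 members and at least 10 CPM by 21. A filter on low counts passed 35 of the 44 (10 fibrillar, 7 basement membrane, 18 other), of which 14 averaged under 10 CPM. The 9 that did not pass were Col2a1, Col4a3, Col6a5, Col6a6, Col9a1, Col19a1, Col22a1, Col25a1 and Col26a1, and none averaged above 0.420 CPM. Col9a1, a cartilage chain, had no count in any tumour.

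**Figure D1:**
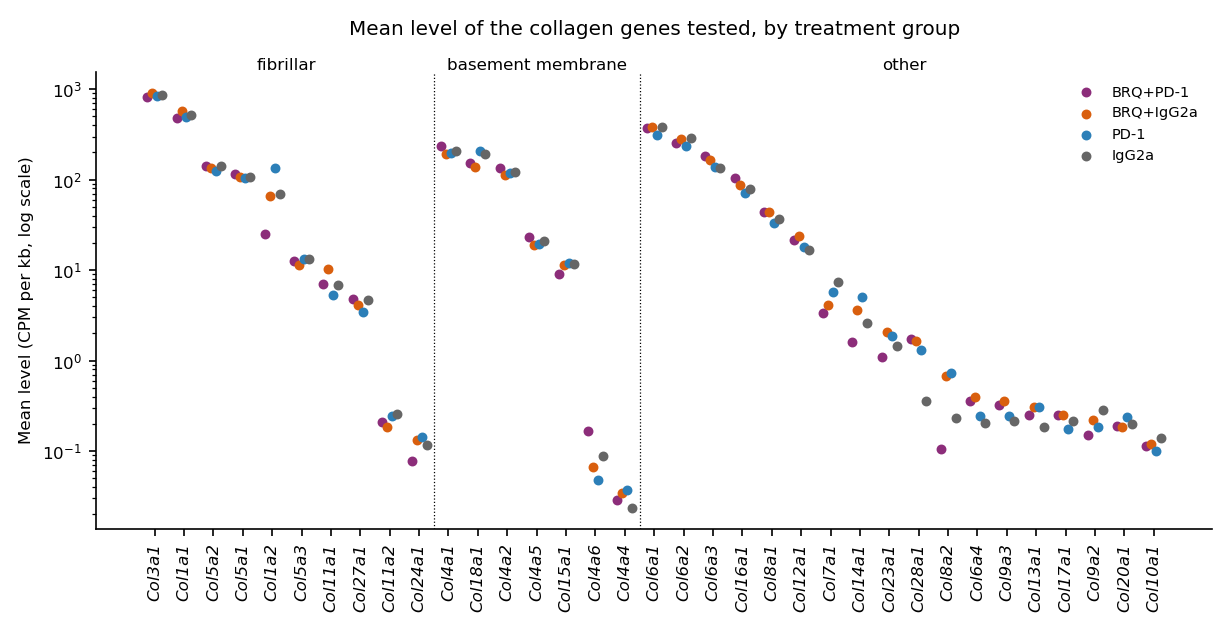
Mean level of each of the 35 collagen genes tested, in CPM per kb of transcript on a log scale, with a point per treatment group (6 tumours each) and dotted lines between the classes. Col3a1 averaged 859 CPM per kb over the 24 tumours and Col1a1 520, and the 4 points of a gene lie close together for the abundant members other than Col1a2.

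Among fibrillar chains, the 4 with the highest level per kb were Col3a1, Col1a1, Col5a2 and Col5a1. Col3a1 (ENSMUSG00000026043), the sole chain of type III collagen of extensible tissues, averaged 4611 ± 895 CPM in BRQ+PD-1, 5088 ± 1388 CPM in BRQ+IgG2a, 4655 ± 931 CPM in PD-1 and 4761 ± 667 CPM in IgG2a (mean ± SD, n = 6 each). Col1a1 (ENSMUSG00000001506), the α1 chain of type I collagen, averaged 2882 ± 802, 3448 ± 929, 2945 ± 1103 and 3057 ± 396 CPM in the same 4 groups. Neither passed the test in any comparison: over the brequinar contrast described below, the log2 fold change was 0.04 ± 0.12 (SE) for Col3a1 and 0.07 ± 0.15 for Col1a1.

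Type V chains, which join type I fibrils and limit their width, were among the steadiest members. Col5a1 ranged from 661 to 1133 CPM over the 24 tumours and Col5a2 from 674 to 1117 CPM, 1.71-fold and 1.66-fold. Their biological coefficients of variation, the spread between tumours of a group beyond counting error, were 0.159 and 0.166, against a median of 0.395 over the members tested. The third type V chain, Col5a3, was lower, at 12.6 CPM per kb against 136 for Col5a2 and 109 for Col5a1, and ranged from 41.1 to 151 CPM.

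Col1a2 (ENSMUSG00000029661), the α2 chain that joins Col1a1 in type I collagen, lay far below its partner in level. It averaged 73.9 CPM per kb against 520 for Col1a1, and it ran 106-fold, from 23.4 to 2494 CPM, where Col1a1 ran 3.08-fold, from 1681 to 5173 CPM. In BRQ+PD-1 the lowest, median and highest Col1a2 levels were 23.4, 51.2 and 467 CPM. They were 52.8, 352 and 795 CPM in BRQ+IgG2a, 145, 360 and 2494 CPM in PD-1, and 106, 359 and 716 CPM in IgG2a. The 4 ranges overlap, and 4 of the 6 BRQ+PD-1 tumours lie under the lowest PD-1 tumour.

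In CPM per kb, Col1a1 exceeded Col1a2 by a median of 45.8-fold in BRQ+PD-1, 10.4-fold in BRQ+IgG2a, 6.57-fold in PD-1 and 9.18-fold in IgG2a, and over all 24 tumours by 1.87-fold to 93.0-fold. The Col1a2 difference of BRQ+PD-1 from PD-1 was -2.41 ± 0.85 on the log2 scale and did not pass the test (adjusted p = 0.102 by edgeR's quasi-likelihood test). Without PD-1 replicate 6 it was -1.42 (adjusted p = 0.358). Leaving out BRQ+PD-1 replicate 2, the highest of its group, gave -3.38, which passed (adjusted p = 0.0335). It also passed by DESeq2 (-2.42, adjusted p = 0.0279) and by limma voom with sample weights (-2.47, adjusted p = 0.00818). How the counting and its strand setting bear on these Col1a2 levels was not tested, since neither is stated.

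**Figure D2:**
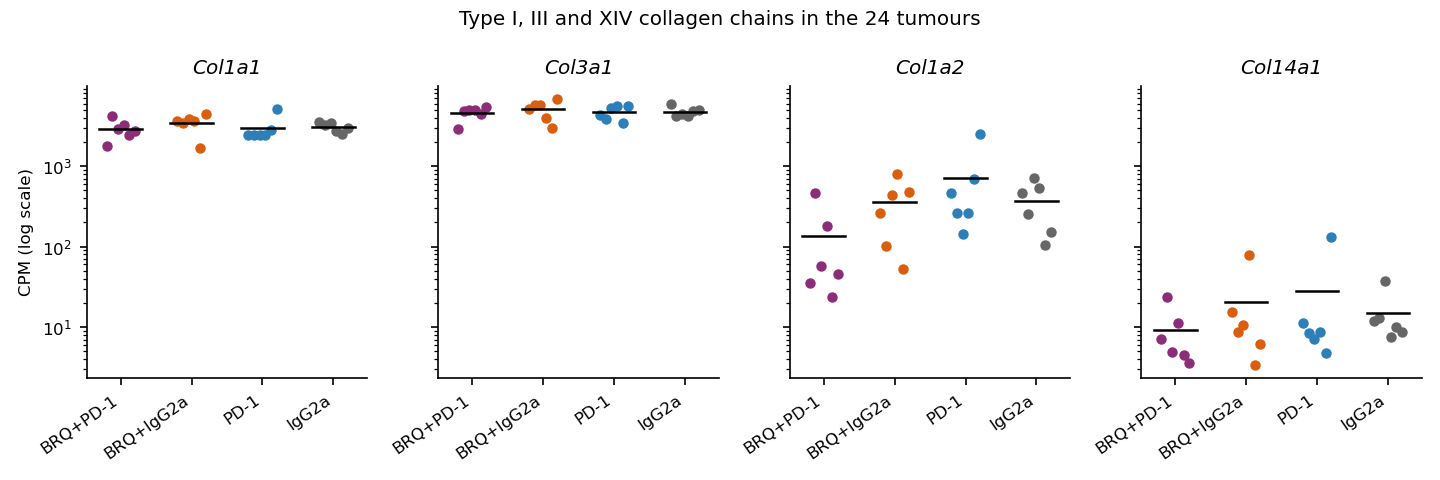
CPM on a log scale of Col1a1, Col3a1, Col1a2 and Col14a1 in each tumour, by group, with a bar at each group's mean (n = 6). Col1a1 and Col3a1 stay within 1681 to 5173 CPM and 2874 to 6771 CPM, Col1a2 runs from 23.4 to 2494 CPM, and the single highest PD-1 point for Col1a2 and Col14a1 is PD-1 replicate 6.

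The basement membrane class was led by Col4a1 at 209 CPM per kb, Col18a1 at 174, Col4a2 at 122 and Col4a5 at 20.6. Col4a1 and Col4a2 encode the chains of the type IV network found under most epithelia and vessels. Col4a1 (ENSMUSG00000031502) averaged 1579 ± 250 CPM in BRQ+PD-1, 1258 ± 449 CPM in BRQ+IgG2a, 1303 ± 113 CPM in PD-1 and 1389 ± 206 CPM in IgG2a. Col4a2 averaged 869 ± 161, 731 ± 287, 772 ± 70.8 and 777 ± 115 CPM in the same order. Both were highest in BRQ+IgG2a replicate 5, at 2154 and 1306 CPM, and no group comparison of either passed the test. The chains of the kidney filter, Col4a3, Col4a4 and Col4a5, and Col4a6 were scarcer: Col4a5 ranged from 59.2 to 178 CPM, Col4a6 and Col4a4 averaged 0.616 and 0.315 CPM, and Col4a3 did not pass the filter.

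Col4a1 and Col4a2 lie head to head on chromosome 8, and RefSeq places their starts 21 bases apart (GRCm38.p6), so that their promoter windows, 250 bases before to 50 after each start, share 78 bases. The Col4a1 window is shown because this pair held its ratio across tumours more closely than either chain held its level. It spans chr8:11312777-11313076 on the minus strand, and the capitals mark the part it shares with the Col4a2 window:
Col4a1: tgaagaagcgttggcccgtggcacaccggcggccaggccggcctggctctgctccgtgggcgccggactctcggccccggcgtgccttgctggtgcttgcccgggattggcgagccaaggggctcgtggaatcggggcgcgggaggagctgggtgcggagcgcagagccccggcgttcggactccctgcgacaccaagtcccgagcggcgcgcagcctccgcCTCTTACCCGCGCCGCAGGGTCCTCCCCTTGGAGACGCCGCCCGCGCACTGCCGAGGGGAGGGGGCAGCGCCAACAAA
Per kb, Col4a1 over Col4a2 stayed between 1.41 and 1.96 in all 24 tumours, with a mean of 1.78 ± 0.11 in BRQ+PD-1, 1.69 ± 0.15 in BRQ+IgG2a, 1.65 ± 0.13 in PD-1 and 1.75 ± 0.15 in IgG2a. The ratio ran 1.39-fold over the 24 tumours. Other pairs were as steady, at 1.33-fold for Col5a1 over Col5a2, on chromosomes 2 and 1, and 1.37-fold for Col6a1 over Col6a2. The part of the shared promoter in the Col4a1 to Col4a2 ratio was not tested. Of the members, 35 had a window in the RefSeq table, 38 windows in all. TATAAA, read on both strands, stood in 5 of the 38 and in 13.6% of all windows of that length, and CCAAT, which does not overlap it, in 13 of the 38 and in 37.4%. A match is a description, not a site.

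Of the other collagens, type VI was the most abundant. It forms beaded filaments next to cells from the chains of Col6a1, Col6a2 and Col6a3, with Col6a4, Col6a5 and Col6a6 as alternatives to Col6a3. Col6a1 averaged 363 CPM per kb over the 24 tumours, Col6a2 264 and Col6a3 155, while Col6a4 averaged 0.303. Col6a1 averaged 1546 ± 314 CPM in BRQ+PD-1, 1565 ± 260 in BRQ+IgG2a, 1287 ± 347 in PD-1 and 1550 ± 308 in IgG2a. Col6a2 averaged 1009 ± 208, 1106 ± 215, 924 ± 217 and 1135 ± 228 CPM in those groups. For both chains, PD-1 replicate 6 was the lowest of the 24 tumours, at 687 and 547 CPM.

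Brequinar, averaged over both antibodies, was the contrast with the most calls. Called means an adjusted p below 0.05 over all genes in edgeR's quasi-likelihood test. The contrast sets the mean of BRQ+PD-1 and BRQ+IgG2a against the mean of PD-1 and IgG2a, 12 tumours each. Of 35 collagen genes tested, Col8a1, Col6a3 and Col16a1 rose and Col18a1 and Col7a1 fell, 5 genes or 14.3%, beside 12.5% of all 16029 genes tested (6.91% rose and 5.57% fell). The share of collagen genes called was thus near that of all genes. No fibrillar chain was called, and the class medians were 0.04 for fibrillar, 0.05 for basement membrane and 0.18 for other collagens, beside 0.01 for all genes.

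Col18a1 (ENSMUSG00000001435), a basement membrane collagen whose end fragment is endostatin, had the smallest adjusted p. It stood at 574, 736 and 935 CPM in BRQ+PD-1 (lowest, median, highest) and at 527, 620 and 1020 CPM in BRQ+IgG2a, against 724, 1048 and 1177 CPM in PD-1 and 667, 934 and 1152 CPM in IgG2a. In 11 of 12 brequinar tumours it lay below the mean of the other groups, and the exception, BRQ+IgG2a replicate 5, was also the highest for Col4a1 and Col4a2. The log2 fold change was -0.46 ± 0.11 with an adjusted p of 0.00899, and Col18a1 stayed called in 24 of 24 fits that each left out a tumour.

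Col8a1 (ENSMUSG00000068196), the α1 chain of the short-chain type VIII network of vessel walls, stood at 189, 210 and 293 CPM in BRQ+PD-1 and 179, 214 and 288 CPM in BRQ+IgG2a, against 145, 162 and 196 CPM in PD-1 and 166, 179 and 223 CPM in IgG2a. All 12 brequinar tumours exceeded the mean of the groups without brequinar, although the ranges overlap. The log2 fold change was 0.33 ± 0.08 (adjusted p = 0.0122), called in 24 of 24 fits without a tumour. Leaving out all 4 muscle-rich tumours gave 0.25 with an adjusted p of 0.0765. Its partner chain Col8a2 was scarce, at 0.459 ± 0.521 CPM in BRQ+PD-1, 2.95 ± 4.93 CPM in BRQ+IgG2a, 3.18 ± 4.59 CPM in PD-1 and 1.01 ± 0.794 CPM in IgG2a.

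Col6a3 (ENSMUSG00000048126), the large chain of type VI, stood at 1254, 1743 and 1916 CPM in BRQ+PD-1 and 1112, 1437 and 2014 CPM in BRQ+IgG2a, against 946, 1329 and 1434 CPM in PD-1 and 915, 1220 and 1526 CPM in IgG2a. The log2 fold change was 0.35 ± 0.10 (adjusted p = 0.0299), with 11 of 12 brequinar tumours above the mean of the other groups. Its partners did not pass the test, at 0.14 ± 0.13 for Col6a1 and 0.04 ± 0.12 for Col6a2. The Col6a3 call was lost without BRQ+PD-1 replicate 2, 3 or 6, BRQ+IgG2a replicate 6, PD-1 replicate 1, or IgG2a replicate 2 or 3, with adjusted p from 0.0506 to 0.0643, and without the 4 muscle-rich tumours the value was 0.24 (adjusted p = 0.144).

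Col16a1 (ENSMUSG00000040690), a fibril-associated chain, stood at 404, 588 and 601 CPM in BRQ+PD-1 and 378, 423 and 658 CPM in BRQ+IgG2a, against 224, 384 and 449 CPM in PD-1 and 288, 421 and 493 CPM in IgG2a. The log2 fold change was 0.36 ± 0.11 (adjusted p = 0.0428). It was called in 10 of 24 fits without a tumour. The call was lost without BRQ+PD-1 replicate 1, 3, 5 or 6, BRQ+IgG2a replicate 2, 5 or 6, PD-1 replicate 1, 2 or 6, or IgG2a replicate 2, 3, 4 or 5, with adjusted p from 0.0574 to 0.0816, and without the 4 muscle-rich tumours the value was 0.26 (adjusted p = 0.118).

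Col7a1 (ENSMUSG00000025650), the anchoring fibril chain of skin, stood at 6.11, 35.98 and 40.3 CPM in BRQ+PD-1 and 18.3, 37.2 and 60.3 CPM in BRQ+IgG2a, against 29.6, 49.8 and 78.4 CPM in PD-1 and 44.6, 66.1 and 87.7 CPM in IgG2a. All BRQ+PD-1 tumours lay below all IgG2a tumours, but edgeR did not call that comparison (-1.13 ± 0.37, adjusted p = 0.0827). The share of all genes separated in this way was not counted. For the brequinar average, the log2 fold change of -0.79 ± 0.26 had an adjusted p of 0.0487 and was called in 6 of 24 fits without a tumour. The call was lost without BRQ+PD-1 replicate 2, 3, 5 or 6, BRQ+IgG2a replicate 1, 2, 4 or 5, PD-1 replicate 1, 3, 4, 5 or 6, or IgG2a replicate 1, 3, 4, 5 or 6, with adjusted p from 0.0502 to 0.0791 and fold changes from -0.84 to -0.72. Without the 4 muscle-rich tumours the value was -0.85 (adjusted p = 0.0593).

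Of these 5 genes, 2 stayed called without BRQ+PD-1 replicate 3 or 6, PD-1 replicate 1 or IgG2a replicate 3. Of the 5, 3 stayed called without BRQ+PD-1 replicate 2 or 5, BRQ+IgG2a replicate 2, 5 or 6, PD-1 replicate 6, or IgG2a replicate 2, 4 or 5, and 4 or 5 of them without any other single tumour. Genes outside the 5 were called without IgG2a replicate 3 (Col28a1), PD-1 replicate 6 (Col28a1 and Col6a4) or BRQ+PD-1 replicate 2 (Col1a2, which was lower). DESeq2 called 6 collagen genes, beside 15.5% of the genes it gave an adjusted p, and limma voom with sample weights 8, beside 23.7% of all genes. Summed skeletal muscle markers had medians of 29.4 and 65.5 CPM in BRQ+PD-1 and BRQ+IgG2a, against 49.7 and 143 CPM in PD-1 and IgG2a, and their part in these results was not tested beyond the values without the muscle-rich tumours.

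**Figure D3:**
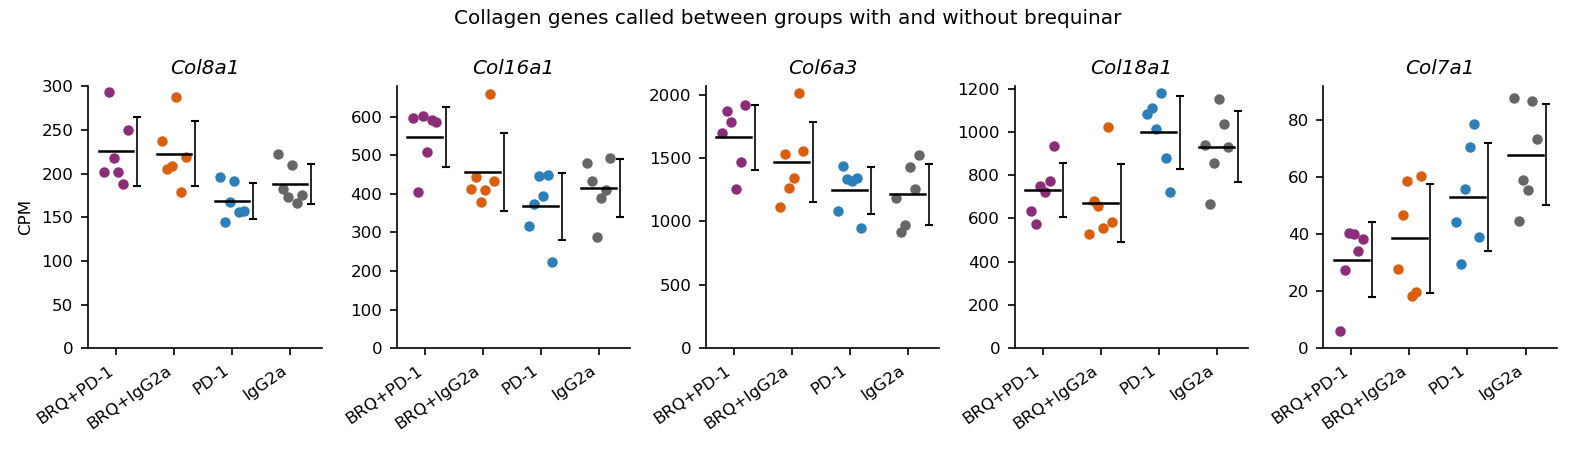
CPM in each tumour of the 5 collagen genes called between the groups with and without brequinar, with the mean (bar) and SD (whisker) of 6 tumours. For Col8a1, Col16a1 and Col6a3 the brequinar groups lie higher and for Col18a1 and Col7a1 lower, with overlapping points in each.

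BRQ+PD-1 against PD-1 asks what brequinar adds to the PD-1 antibody. Col16a1 rose, at 404 to 601 CPM in BRQ+PD-1 against 224 to 449 CPM in PD-1, a log2 fold change of 0.58 ± 0.16 (adjusted p = 0.0392). Col8a1 rose, at 189 to 293 CPM against 145 to 196 CPM in PD-1, by 0.42 ± 0.12 (adjusted p = 0.0412). Each was above the PD-1 mean in 6 of 6 BRQ+PD-1 tumours. These 2 calls were 5.71% of the collagen genes tested, beside 5.04% of all genes (2.38% rose and 2.66% fell). No fibrillar or basement membrane chain was called, and the medians were -0.02, 0.17 and 0.23 for fibrillar, basement membrane and other collagens. DESeq2 called 3, adding Col1a2, beside 7.93% of the genes it gave an adjusted p, and voom 9, beside 13.7% of all genes.

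Neither call held when PD-1 replicate 6 was left out: Col16a1 was then at 0.47 with an adjusted p of 0.0916 and Col8a1 at 0.40 with 0.0921, and the count was 0. It was also 0 without PD-1 replicate 2 and without BRQ+PD-1 replicate 3 or 6. The count was 1 without BRQ+PD-1 replicate 1 or 5, BRQ+IgG2a replicate 3 or PD-1 replicate 1, 3 or 5. It was 3 without BRQ+PD-1 replicate 4, BRQ+IgG2a replicate 5 or PD-1 replicate 4. Without BRQ+PD-1 replicate 2 it stayed 2, but Col8a1 was lost (0.33, adjusted p = 0.102) and Col1a2, which was lower, was called. Of the 24 fits without a tumour, Col16a1 was lost in 7 and Col8a1 in 8.

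**Figure D4:**
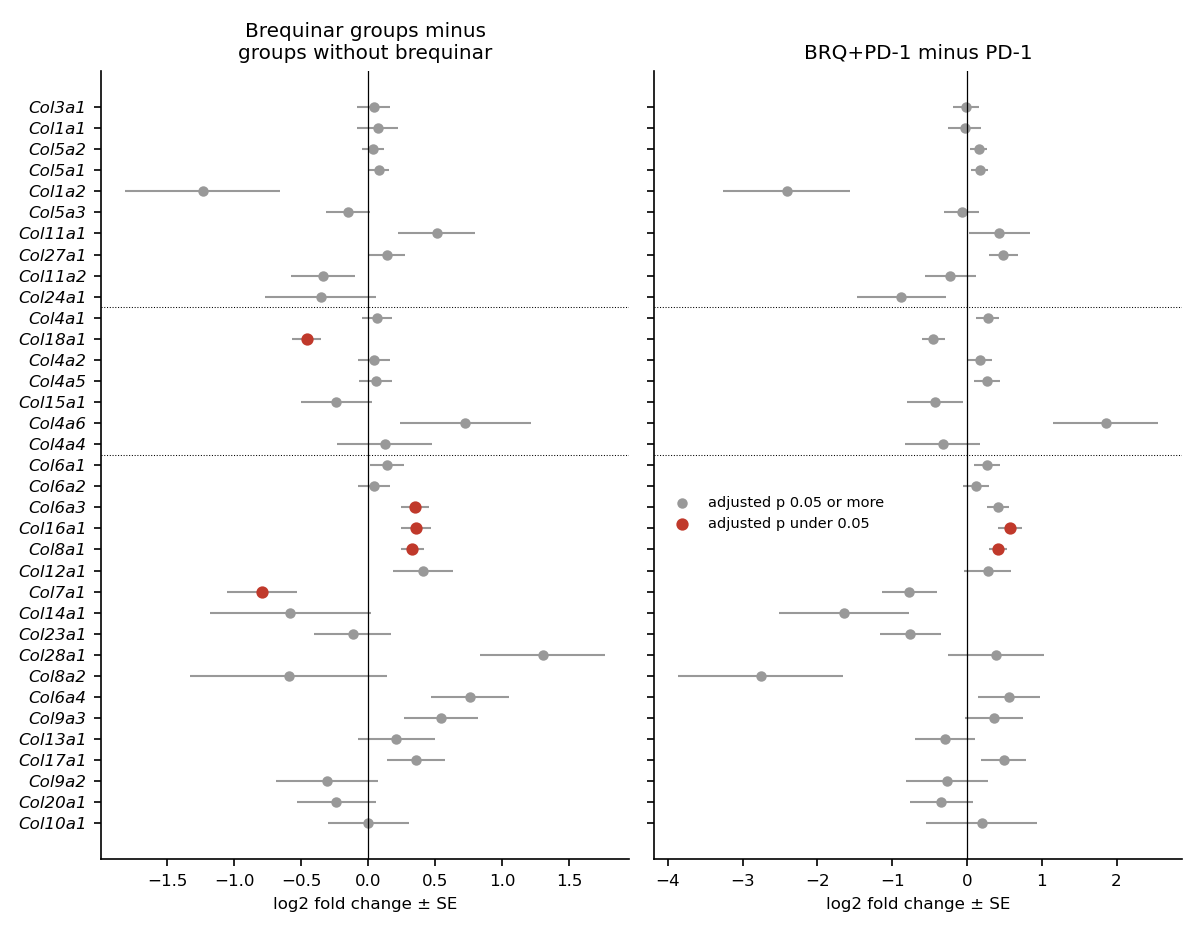
Log2 fold change ± SE of the 35 collagen genes tested, for the brequinar groups minus the groups without brequinar (left) and BRQ+PD-1 minus PD-1 (right), by class from fibrillar at the top to other at the bottom. Red points passed the test across all 16029 genes, 5 on the left and 2 on the right, and Col1a2, Col8a2 and Col4a6 on the right have wide errors.

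The comparisons with IgG2a called no collagen gene. For BRQ+IgG2a against IgG2a, edgeR called 0 of 35 beside 3.46% of all genes (2.96% higher, 0.493% lower), with 11.4% of collagen genes (4) and 14.8% of all genes at an unadjusted p under 0.05. DESeq2 called 1, beside 4.83% of the genes it gave an adjusted p, and voom 6, beside 13.2% of all genes. For BRQ+PD-1 against IgG2a edgeR called 0 beside 3.91% of all genes (2.48% higher, 1.43% lower), with 17.1% of collagen genes (6) and 23.3% of all genes at an unadjusted p under 0.05. DESeq2 called 3, beside 9.46%, and voom 6, beside 9.08%. For PD-1 against IgG2a edgeR called 0 beside 0.0187% of all genes, with 5.71% of collagen genes (2) and 6.46% of all genes at an unadjusted p under 0.05. DESeq2 and voom also called 0, beside 0.204% and 0.0561%. BRQ+PD-1 against BRQ+IgG2a gave 0 beside 0% of all genes, with 8.57% of collagen genes (3) and 7.29% of all genes at an unadjusted p under 0.05. DESeq2 called 0, beside 0.00608%, and voom 5, beside 3.87%. A test of whether the brequinar effect differed with the PD-1 antibody gave 0 beside 0% of all genes, with 11.4% of collagen genes (4) and 7.62% of all genes at an unadjusted p under 0.05. DESeq2 called 0, beside 0.0983%, and voom 2, beside 1.7%.

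Single tumours decided some of these counts. For BRQ+IgG2a against IgG2a the count was 2 without BRQ+IgG2a replicate 5, when Col18a1 and Col4a1 fell, and 1 without IgG2a replicate 2 (Col18a1) or PD-1 replicate 6 (Col28a1). For BRQ+PD-1 against IgG2a it was 1 without BRQ+PD-1 replicate 4 or IgG2a replicate 6 (Col6a3) or PD-1 replicate 6 (Col28a1). For BRQ+PD-1 against BRQ+IgG2a it was 1 without BRQ+IgG2a replicate 5 (Col4a1).

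Col28a1, a chain with von Willebrand factor A domains known from peripheral nerve, was chosen after its values were seen. It was low in every group, at 2.97, 6.64 and 12.4 CPM in BRQ+PD-1 and 2.78, 6.30 and 12.98 CPM in BRQ+IgG2a, against 1.111, 2.51 and 21.4 CPM in PD-1 and 0.5003, 1.15 and 3.63 CPM in IgG2a. All 6 tumours of each brequinar group exceeded the IgG2a mean, and the 21.4 CPM was PD-1 replicate 6. Its log2 fold change was 2.29 ± 0.68 for BRQ+PD-1 against IgG2a (adjusted p = 0.0591) and 2.22 ± 0.68 for BRQ+IgG2a against IgG2a (adjusted p = 0.0782). Without PD-1 replicate 6, which enters these through the shared estimate of spread, the values were 2.29 (adjusted p = 0.0165) and 2.22 (adjusted p = 0.0172), and the brequinar average was 1.90 (adjusted p = 0.00286) in place of 1.30 (adjusted p = 0.0686).

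By class sums, fibrillar chains made up 9704 ± 1927 CPM in BRQ+PD-1, 10871.7 ± 2563 in BRQ+IgG2a, 10168 ± 2459 in PD-1 and 10214 ± 1088 in IgG2a. Basement membrane chains summed to 3379 ± 469, 2842 ± 884, 3262 ± 277 and 3295 ± 450 CPM, and the others to 5307 ± 731, 5188 ± 512, 4308 ± 749 and 4795 ± 787 CPM, in the same order. The SDs exceed most of the differences between groups, but both brequinar groups stood above PD-1 in the other collagens by more than their SDs. Without PD-1 replicate 6, the PD-1 sums were 4562 ± 463 CPM for the others and 3326 ± 256 CPM for basement membrane chains (n = 5). Class sums were not tested between groups.

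PD-1 replicate 6 held the most extreme values of the collagen genes. It had the highest level of the 24 tumours for 10 of the 35 genes tested and the lowest for 5. Its fibrillar sum was 14934 CPM, and without it the PD-1 mean was 9215 ± 863 CPM (n = 5). Col1a1 stood at 5173 CPM there, against at most 4431 CPM in the other 23, Col1a2 at 2494 against 795 CPM, Col15a1 at 159 against 106 CPM and Col14a1, a fibril-associated chain, at 130 against 78.8 CPM. Conversely Col4a5, Col6a1, Col6a2, Col16a1 and Col11a1 were at their lowest, at 59.2, 687, 547, 224 and 12.3 CPM. Skeletal muscle markers summed to 9210 CPM in this tumour, adipocyte markers to 23.6 CPM against at most 8.15 CPM in the others, and cartilage and bone markers to 28.5 CPM against at most 17.4 CPM, and their part in the collagen levels was not tested. The 10 fibroblast markers summed to 1468 CPM, near the lowest of the other 23, which ran from 1463 to 2110 CPM with a median of 1816 CPM.

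Leaving this tumour out, the PD-1 means were 2499 CPM for Col1a1 and 362 CPM for Col1a2, in place of 2945 and 718 CPM. Those for Col6a1 and Col16a1 were 1407 and 396 CPM, in place of 1287 and 367 CPM. The PD-1 tumours against IgG2a still gave 0 calls.

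**Figure D5:**
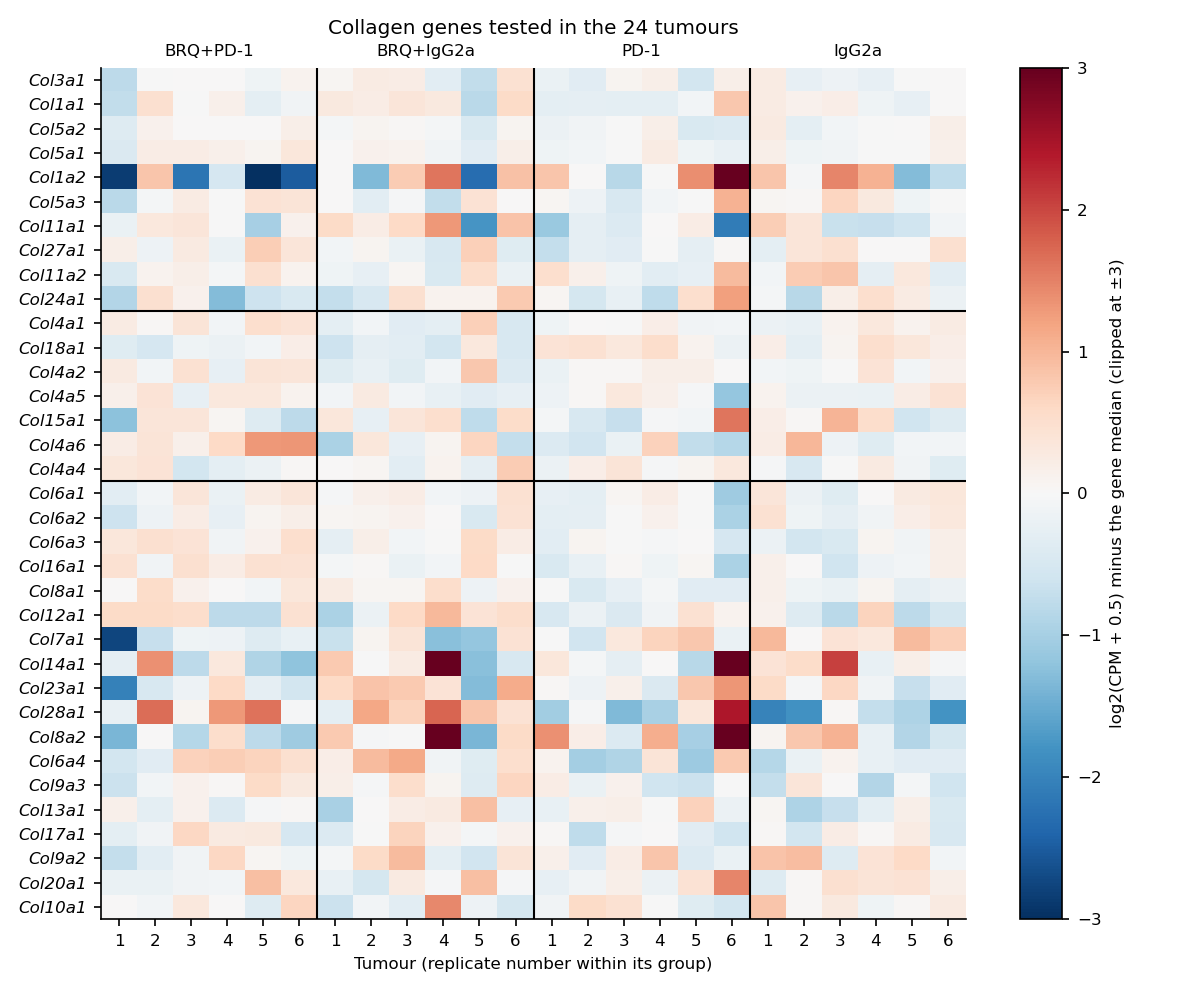
Log2(CPM + 0.5) of each collagen gene tested, minus that gene's median over the 24 tumours, with genes in rows by class and tumours in columns by group (red higher, blue lower). Col1a2, Col14a1 and Col8a2 differ most between tumours of a group, PD-1 replicate 6 departs from its group in both directions, and the rows of Col4a1 with Col4a2 and Col6a1 with Col6a2 look alike.

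Chains of a type did not always vary together between tumours. Group-centred log2(CPM + 0.5) was correlated for 20 pairs of genes over the 20 tumours without much muscle, with p-values from 100000 permutations within groups, adjusted over the 20 pairs; the smallest p that these can give is 1e-05. Col4a1 and Col4a2 had r = 0.94 and rho = 0.90 (permutation p = 1e-05 for each, adjusted 5e-05 and 6.67e-05), and 0.87 without the 2 tumours farthest from the median. Col6a1 and Col6a2 had r = 0.93 and rho = 0.96 with the same p-values, and 0.94 without 2 tumours. Col5a1 and Col5a2 had r = 0.91 and rho = 0.93, again with these p-values, and 0.85 without 2 tumours.

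No such relation was seen for Col6a3 with Col6a1 (r = 0.07, rho = 0.06, permutation p = 0.793 and 0.813, adjusted 0.835 and 0.904), nor for Col4a5 with Col4a1 (r = -0.24, rho = -0.08, permutation p = 0.360 and 0.745, adjusted 0.450 and 0.904). Over all 24 tumours r for Col6a1 and Col6a3 was 0.46 (adjusted permutation p = 0.0453), but rho was 0.42 (adjusted permutation p = 0.0966) and r was 0.27 without the 2 farthest tumours. Col6a1 and Col6a2 are neighbours on chromosome 10, whereas Col6a3 lies on chromosome 1. Col5a1 and Col5a2, with r = 0.91, lie on chromosomes 2 and 1, and the part of gene position in these relations was not tested.

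Col1a2 followed Col1a1 in direction if not in size (r = 0.78, rho = 0.78, permutation p = 0.0001 and 0.00021, adjusted 0.000286 and 0.0007), with 0.81 without the 2 farthest tumours. For Col1a2 and Lox, the lysyl oxidase that cross-links collagen, the values were larger, a difference that was not tested (r = 0.93, rho = 0.93, permutation p = 1e-05 and 2e-05, adjusted 5e-05 and 0.0001, and 0.89 without 2 tumours). Col1a2 and Postn, a matrix protein of fibroblasts, had r = 0.89 and rho = 0.88 (permutation p = 2e-05 and 3e-05, adjusted 8e-05 and 0.00012, and 0.87 without 2 tumours). Col1a2 and Thy1, a fibroblast surface protein, had r = 0.83 and rho = 0.80 (permutation p = 3e-05 and 0.0003, adjusted 0.0001 and 0.000857, and 0.78 without 2 tumours). For Col1a2 and Pdgfra, a fibroblast receptor, they were near 0 (r = -0.02, rho = -0.06, permutation p = 0.934 and 0.813, adjusted 0.934 and 0.904). With Col1a1, r was 0.81 for Lox, 0.72 for Thy1, 0.68 for Postn and 0.22 for Pdgfra (adjusted permutation p = 0.000978, 0.0004, 0.00242 and 0.450). The rho values were 0.74, 0.65, 0.63 and 0.22. Lox, Postn, Thy1 and Pdgfra were paired with Col1a2 and Col1a1 after their values were seen. Col3a1 and Col1a1 had r = 0.75 and rho = 0.56 (permutation p = 0.00828 and 0.0145, adjusted 0.0151 and 0.0263). Without the 2 farthest tumours r was 0.32, so the size of r rests on those, and rho was not computed without them.

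The genes that modify, fold and process collagen chains are given beside the shares of all genes called, 12.5% for the brequinar average, 5.04% for BRQ+PD-1 against PD-1, and 0 or 0.0187% in 3 of the 7 comparisons. Of 15 genes that hydroxylate or glycosylate the chains and 10 that fold and export them, none was called in any comparison. P4hb, a subunit of prolyl 4-hydroxylase, ranged from 1054 to 1625 CPM, Ppib, a prolyl isomerase, from 89.8 to 146 CPM, Sparc, a collagen-binding matrix protein, from 1166 to 2095 CPM and Serpinh1, the collagen chaperone, from 631 to 1165 CPM. Among 11 tested genes of propeptide cleavage and cross-linking, Adamts14, an N-propeptidase, fell with brequinar (55.9 against 88.3 CPM, -0.65 ± 0.14, adjusted p = 0.00382). In BRQ+PD-1 against PD-1, Adamts14 fell (61.4 ± 17.2 against 101 ± 21.2 CPM) and Pcolce, which speeds C-propeptide removal, rose (550 ± 57.3 against 433 ± 27.1 CPM, 0.34 ± 0.09, adjusted p = 0.0238).

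Of 9 collagen receptors tested, Itga1 and Lair1 rose with brequinar and none fell, beside 12.5% of all genes called in that contrast. Itga1, the α1 integrin that binds collagen, stood at 72.8, 87.9 and 102 CPM in BRQ+PD-1 (lowest, median, highest) and 44.9, 57.5 and 68.3 CPM in BRQ+IgG2a, against 20.9, 30.9 and 42.0 CPM in PD-1 and 22.4, 31.7 and 43.96 CPM in IgG2a. Every brequinar tumour lay above every tumour without brequinar (log2 fold change 1.199 ± 0.11, adjusted p = 1.13e-06). How many of all genes were separated in this way was not counted. Lair1, an inhibitory collagen receptor of leukocytes, averaged 51.5 CPM with brequinar against 30.1 CPM without (0.81 ± 0.16, adjusted p = 0.00251), and 11 of 12 brequinar tumours lay above the mean of the others. In BRQ+PD-1 against PD-1, Itga1 rose by 1.53 ± 0.16 (adjusted p = 2.76e-05) and Mrc2, an endocytic collagen receptor, by 0.39 ± 0.10 (adjusted p = 0.0288).

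Itga1 and Lair1 are also known from lymphocytes, and the 4 T cell markers rose with brequinar as well (median log2 fold change 1.38). Their median was -0.59 for BRQ+PD-1 against BRQ+IgG2a, where Itga1 stood higher, and neither they nor Itga1 were called there. Of 4 macrophage markers, Adgre1 and Cd68 also rose with brequinar (median of the 4, 0.23). The part of immune cells in these receptor levels was not tested. Of 10 tested basement membrane partners, 1 rose with brequinar, Nid2, a nidogen that links laminin to type IV collagen (55.2 against 42.7 CPM, 0.37 ± 0.10, adjusted p = 0.0198). Of 9 tested genes of the TGF-beta axis 1 rose, the receptor Tgfbr1 (115 against 87.6 CPM, 0.39 ± 0.09, adjusted p = 0.00629). In that contrast 12.5% of all genes were called (6.91% rose), so 1 gene of each list is near that share. With brequinar, none of 10 fibril-associated matrix genes, 10 fibroblast markers or 8 endothelial markers was called, with median log2 fold changes of 0.21, 0.10 and 0.07. The highest per kb of each list were Bgn and Fn1 (3086 and 2985 CPM), Gsn and Pdgfrb (602 and 347 CPM), and Cdh5 and Pecam1 (104 and 62.7 CPM). Acta2, the smooth muscle actin of pericytes and activated fibroblasts, fell in BRQ+PD-1 against IgG2a (123 ± 43.6 against 299 ± 126 CPM, -1.28 ± 0.36, adjusted p = 0.0490). It was 1 of 8 pericyte and smooth muscle markers called there, beside 3.91% of all genes, and the list's median was -0.09. Skeletal muscle markers had a median of -6.14 in that comparison, with 2 muscle-rich tumours in IgG2a and none in BRQ+PD-1, and their part in the Acta2 level was not tested.

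The collagen 3′ UTRs share a sequence feature. The miR-29 family is known to bind collagen messages, and these RNA libraries hold no measure of it. The mature sequences, with the seed (bases 2 to 8) in capitals, share that seed:
miR-29a-3p: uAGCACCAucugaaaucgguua
miR-29b-3p: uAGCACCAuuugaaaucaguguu
The complement of the seed, TGGTGCT, stood in the 3′ UTR of 24 of 43 collagen genes with an annotated one (55.8%), against 12.2% of 20847 genes, and at 0.772 against 0.108 matches per kb. It stood in 9 of 10 fibrillar, 7 of 8 basement membrane and 8 of 25 other collagens. The first match of the leading chains and of 2 called genes is shown with its flank, the match in capitals:
Col3a1: tcaaaatgtctcaaTGGTGCTa
Col1a1: tgggaaggaatttcTGGTGCTa
Col5a2: ttttcttttaatgaTGGTGCTa
Col5a1: taactatgaacattTGGTGCTg
Col4a1: ccaccgtcacaacaTGGTGCTa
Col8a1: tgtatattctaccaTGGTGCTa
Col16a1: ccatggggttccccTGGTGCTg
The 3′ UTR of Col1a2, the least even of the abundant fibrillar chains, held no match. Of the 5 genes called with brequinar, Col8a1, Col16a1, Col6a3 and Col7a1 held a match, in both directions of change, and Col18a1 held none. Matures are from RefSeq (GRCm38.p6) and UTRs from GENCODE M21, and a match is a description, not a shown site.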

How the data were processed

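RNA from 24 tumours was sequenced, 1 library each. The deposited table gives whole-number counts per Ensembl gene that the authors had not normalized; the submitters' processing notes list HISAT2 2.2.1, StringTie 2.2.1 and Trim Galore 0.6.7, quality control with MultiQC 1.11 and FastQC 0.11.8, and the build GRCm39. No source used here gives the counter, annotation or strand setting, so overlapping and antisense genes cannot be told apart. The deposited FPKM and TPM tables were not used. Every column matched a sample by title, and the labels do not say that tumours of a group came from separate cages or days, so p-values measure the spread between these tumours. Chi-square per gene between tumours of a group was 9.48 to 229, so each counted as its own sample.

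Counts were tested with edgeR 4.0.16 in R 4.3.3 (TMM, filterByExpr by group, robust quasi-likelihood F test, 24 libraries, group as the only term), with Benjamini-Hochberg adjustment over 16029 genes and a threshold of 0.05. Each SE was taken from the fold change and its F value. Symbols and principal transcript lengths came from GENCODE M21 (GRCm38), an older build than the counts', by Ensembl ID, and no coordinates were moved. A gene at 1 CPM rested on 19.1 to 34.3 counts. On simulated counts of 16029 genes, BRQ+IgG2a against IgG2a, recovery was 44.3% at 1.5-fold (70 genes), 70% at 2-fold (70 genes) and 86.7% at 4-fold (60 genes). The changed genes were drawn from all genes tested, whose median biological coefficient of variation was 0.210, against 0.395 for the collagen genes tested. No muscle-rich tumours were simulated. These rates therefore do not give the recovery for collagen genes.

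The members, lists, tests and alternatives were chosen with earlier results of these data known. In each class the 4 members highest per kb, called members and chains of the same type were named, with up to 4 genes per pathway list by adjusted p, or the 2 highest per kb where none was called. Other tools were DESeq2 1.42.0 and limma voom 3.58.1 with quality weights. Further alternatives were RLE factors, no filter, no robust dispersion, a replicate block, only the groups compared, no muscle-rich tumours, and each tumour left out.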

Additional observations from a re-analysis of the deposited data

Results flagged for a closer look

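In 104 sets of 6 tumours (26 measures in each of 4 groups), 23 values lay far from the other 5 of their group by Dixon's criterion. Chance flags about 1 in 20 sets that are independent and normally distributed. These CPM were not log-transformed, and the sets share tumours, while the sums contain genes also taken singly. That rate therefore cannot be set against the 23. All values are CPM.

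BRQ+IgG2a replicate 5 was set apart 7 times. It was the highest of its group for Col16a1 (658, next 444), Col18a1 (1020, next 680), Col4a1 (2154, next 1239), Col4a2 (1306, next 711) and the basement membrane sum (4615, next 2768). It was the lowest for Col1a1 (1681, next 3459) and Col5a2 (674, next 892).

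PD-1 replicate 6 was the highest of its group for Col1a1 (5173, next 2816), Col1a2 (2494, next 686), Col5a3 (151, next 75.8), Col8a2 (12.3, next 2.85), Col28a1 (21.4, next 4.62), Col14a1 (130, next 11.3) and the fibrillar sum (14934, next 10487). BRQ+IgG2a replicate 4, another muscle-rich tumour, was the highest for Col8a2 (12.9, next 1.75) and Col14a1 (78.8, next 15.6), and IgG2a replicate 3, also muscle-rich, was the highest for Col14a1 (37.9, next 13.1).

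BRQ+PD-1 replicate 1 was the lowest of its group for Col3a1 (2874, next 4499) and Col5a2 (715, next 931), and BRQ+PD-1 replicate 2 was the highest for Col1a2 (467, next 182). At low levels, Col4a4 was highest in BRQ+IgG2a replicate 6 (0.846, next 0.353), and Col4a6 in PD-1 replicate 4 (1.07, next 0.338) and IgG2a replicate 2 (1.42, next 0.634).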

How the results depend on the processing

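Counts of collagen genes called moved with the tool and the libraries. Against a main count of 0 for BRQ+IgG2a with IgG2a, DESeq2 gave 1, limma voom 6, the groups compared alone 1 and leaving out the 4 muscle-rich tumours 1. Against 0 for BRQ+PD-1 with IgG2a, these gave 3, 6, 1 and 1. Against 2 for BRQ+PD-1 with PD-1, no filter gave 0, voom 9, DESeq2 3, the groups compared alone 0 and leaving out the muscle-rich tumours 1, Col18a1, which was lower. Against 0 for BRQ+PD-1 with BRQ+IgG2a voom gave 5, and for the interaction 2. Against 5 for the brequinar average, no filter gave 2, voom 8, DESeq2 6 (adding Col28a1) and leaving out the muscle-rich tumours 3 (Col18a1, Col28a1 and Col6a4). The cause of these moves was not tested. RLE factors and the fit without robust dispersion changed no count. Leaving out each tumour in turn gave 0 to 2, 0 to 1 and 0 to 3 calls in those first 3 comparisons, 0 to 1 for BRQ+PD-1 with BRQ+IgG2a, 2 to 5 for the brequinar average, and 0 throughout for PD-1 with IgG2a and the interaction. Over the named members' fold changes, 4755 values under alternatives kept their direction and side of the threshold, 52 passed it anew and 71 no longer did, and none that was called changed sign. Most of the 4755 were uncalled in the main fit and stayed so, and thus say little about how steady the calls are. The 71 all came from the 5 main calls of the brequinar average and the 2 of BRQ+PD-1 with PD-1. With a replicate block the brequinar average had 2 calls and BRQ+PD-1 with PD-1 had 1 (Col8a1). Of 36 same-numbered pairs of tumours, 15 had a correlation over 0.1 (range -0.64 to 0.44). The median correlation was -0.0043 for same-numbered and 0.050 for differently numbered pairs. Of 24 tumours, 3 correlated best with their own number. The labels do not say what tumours of the same number share, and whether they shared a cage or day was not tested. The groups compared alone give no value for the brequinar average or the interaction, which need all 4 groups.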
